A study of Homo sapiens with 6 samples.

Results

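The contractile actin cytoskeleton genes ACTA2, ACTG2, TAGLN, CNN1, CNN2, MYL9, TPM1, TPM2 and CALD1, together with VIM, were examined in RNA-seq libraries of melanoma cells with and without an HDAC8 expression vector. They were taken by gene symbol, which gave 10 of the 60504 genes in the table. The choice was made with earlier results of these data known. All libraries came from WM164, a human melanoma cell line with the BRAFV600E genotype, grown without any drug treatment named in the labels. The EV group carried an empty expression vector and the HDAC8 group carried the HDAC8 expression vector, with 3 libraries each, and both kinds of transfected cells were kept under hygromycin. HDAC8 is a class I histone deacetylase. Whether the transfected lines were pools or single clones is not given in the sources used here, so p-values cover the spread between the libraries of each group.

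Actin filaments slide over myosin II to generate tension, and the smooth muscle form of this machinery is also switched on in myofibroblasts and in spread, adherent cells. ACTA2 and ACTG2 encode smooth muscle actins, MYL9 a regulatory light chain of myosin II, TPM1 and TPM2 tropomyosins that wrap the filament, CALD1 caldesmon, and CNN1, CNN2 and TAGLN the calponins and transgelin that bind it. Many of these genes respond to SRF, a transcription factor that binds the CArG box and is held back when unpolymerized actin retains its MRTF cofactors in the cytoplasm. VIM encodes vimentin, the intermediate filament protein of mesenchymal and neural crest derived cells. The study followed the shape and invasion of HDAC8 expressing cells, and the comparison asks which of these genes differed in transcript level between the groups.

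Total counts ran from 34741083 to 42041462 per library and overlapped between the groups. The 7 melanoma and melanocyte markers summed to 244898 to 328728 normalized counts in EV and 137043 to 182218 in HDAC8, most of it from PMEL. MLANA fell from a mean of 8665 to 303.1 (log2 fold change -4.84, DESeq2 adjusted p = 2.36e-161). TYR (-1.60), DCT (-1.08), PMEL (-0.86) and S100B (-0.66) were also lower at a DESeq2 adjusted p under 0.05. SOX10 (-0.33, between 9685.9 and 18068.0 in every library) and MITF (-0.20) were not. The smooth muscle markers DES and MYOCD had no count in any library. The pericyte and smooth muscle marker list summed to 3719 to 4503 normalized counts in EV and 5459 to 6991 in HDAC8, most of it from SMTN (2521.6 to 3168.8 and 4156.4 to 5282.9), and 2 of its 8 markers were at or under 3 counts throughout. SMTN was higher in HDAC8 (log2 fold change 0.76, DESeq2 adjusted p = 1.32e-04), as was RGS5 (1.59, DESeq2 adjusted p = 0.044), whose groups overlapped. The other markers of that list did not reach an adjusted p under 0.05. The fibroblast markers summed to 2509 to 2894 in EV and 1499 to 2423 in HDAC8, most of it from LUM (log2 fold change -0.60, DESeq2 adjusted p = 0.0778), and DCN had no count. PDGFRA went the other way, from a mean of 140.3 to 312.9 (1.16, DESeq2 adjusted p = 0.0377). The leukocyte markers summed to 2286 to 3302 and 4273 to 6165, nearly all of it from CD68 (log2 fold change 0.92, DESeq2 adjusted p = 3.13e-05), while the pan-leukocyte marker PTPRC was at or under 3 counts in every library. CD3E had a count of 0 in every EV library and of 92, 89 and 46 in HDAC8 (8.66, DESeq2 adjusted p = 1.10e-06). The epithelial and endothelial markers summed to at most 218.0 in any library. Their part in the results was not tested, and in bulk libraries fewer cells of a type cannot be told apart from less RNA per cell. Mitochondrially encoded transcripts took 9.66% to 12.8% of the counts in EV and 4.46% to 7.94% in HDAC8, lowest in HDAC8 replicate 1. HDAC8 itself had 383.8, 404.4 and 478.8 normalized counts in EV and 484.8, 445.5 and 473.7 in HDAC8, with overlapping groups (log2 fold change 0.15, DESeq2 adjusted p = 0.856). The targeted transcript thus does not separate the groups, and EV and HDAC8 stand here for libraries as labelled. The study probed transfected cells for HDAC8 protein by immunoblot, which these RNA counts do not measure.

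VIM was the 1 gene of the 10 that passed the test, and it rose. The genes of the smooth muscle actin and light chain type had lower mean counts with wide intervals, TPM1 and TPM2 pointed in opposite directions, and CALD1 was nearly level. A call required an adjusted p under 0.05 and a log2 fold change of 0.58 or more, up or down. By DESeq2, 1 gene was higher and 0 were lower, against 11.0% of the 21021 genes with an adjusted p over the whole table (5.57% higher and 5.44% lower). edgeR, which called 8.12% of all genes tested, and limma-voom each called 1 of the 10 as well. At an unadjusted p under 0.05, 6 of the 10 passed in DESeq2 and 4 in edgeR, against 19.5% of all genes tested by DESeq2. No share of all genes is given here for limma-voom, or for edgeR at an unadjusted p. Those member counts therefore stand without a background of their own. In 6 of the 10 no library of one group lay within the range of the other, against 24.0% of all genes tested. The median log2 fold change of the 10 genes was -0.07, beside -0.003 over all genes with an adjusted p. The 10 genes were chosen with earlier results of these data known, so these comparisons are a description and not a test.

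**Figure D1:**
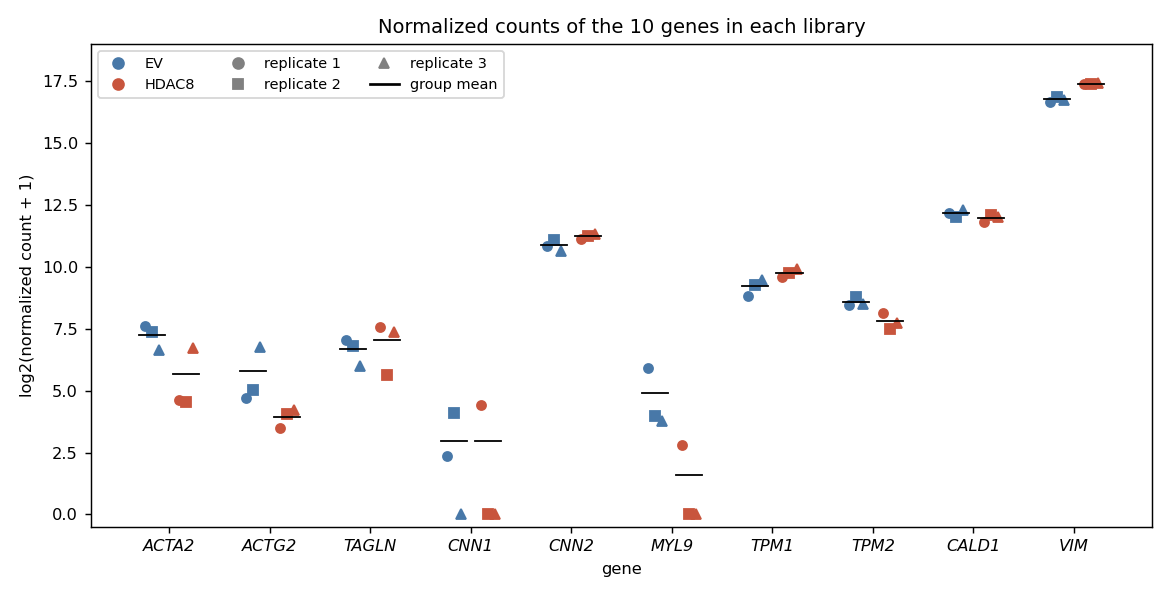
Normalized counts of the 10 genes on a log2(count + 1) scale, 1 point per library, with EV in blue, HDAC8 in red, marker shapes for replicate numbers and black bars at the log2(mean + 1) of each group. VIM lies far above the rest with its 3 HDAC8 libraries between 169072.9 and 174447.7, all above the EV libraries, while ACTA2, ACTG2, TAGLN, CNN1 and MYL9 lie near the bottom and scatter within groups.

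The 10 genes spanned most of the range of expression in these cells. To set genes beside each other, counts were divided by the length of the canonical transcript and scaled to the same sum in every library, as in TPM. VIM stood at 3028 ± 129.0 in EV and 5306 in HDAC8 (SD, n = 3), rank 16 and rank 11 among 19586 protein-coding genes. In EV the order that followed was CALD1 (54.2), CNN2 (51.5), TPM1 (28.5), TPM2 (18.8), ACTA2 (6.7), ACTG2 (2.11), TAGLN (1.6), MYL9 (0.645) and CNN1 (0.257). The EV libraries of CALD1 and CNN2 overlapped on this scale, as did those of ACTG2 and TAGLN, of TAGLN and MYL9, and of MYL9 and CNN1. The other neighbours in the EV order did not. In HDAC8 the level of CNN2 (69.7 to 79.8) lay above that of CALD1 (48.4 to 56.9) in every library, and CALD1 and TPM1 (42 to 52.8) overlapped. MYL9 was last in HDAC8, at 0.0478. ACTA2, ACTG2, TAGLN, MYL9 and CNN1 were low-level transcripts in both groups, each below 10 on this scale in every library. The canonical transcripts of TAGLN (3786 bases) and MYL9 (2786 bases) are long beside their coding lengths of 603 and 516 bases. The places of these genes in the order therefore depend on the length used.

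VIM (ENSG00000026025, chromosome 10, 17228241 to 17237593, plus strand) had 104171.3, 119719.7 and 109557.0 normalized counts in EV, and 169072.9, 172558.4 and 174447.7 in HDAC8. Every HDAC8 library lay above every EV library, and the HDAC8 libraries differed little among themselves. The mean was 111149 ± 7896 against 172026 ± 2727 (SD, n = 3). VIM was thus 1.55-fold higher (95% interval 1.32 to 1.81), or 0.63 on the log2 scale (SE 0.11), with a DESeq2 adjusted p = 1.67e-06. Its share of all counts was 0.289% in EV and 0.461% in HDAC8. This lies close to the minimum of 0.58, and with size factors from upper quartiles it was 0.57 and no longer counted as called.

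Of the counts per kilobase of VIM, NES, SYNM, LMNA, LMNB1 and LMNB2, a set without keratins, VIM made up 90% ± 0.463 in EV and 90.7% ± 2.41 in HDAC8 (SD, n = 3), and the groups overlapped (exact two-sided permutation p = 0.7). In HDAC8 replicate 1 the share was 87.9%, below every EV library, and in the other HDAC8 libraries 92.3% and 91.9%. LMNA, which encodes lamins A and C of the nuclear envelope, took 7.81% in HDAC8 replicate 1 and 4.33% and 4.57% in the others. NES, the neural progenitor filament nestin, was a minor transcript at 0.0673% in EV and 0.0355% in HDAC8. As a single gene NES had overlapping groups (log2 fold change -0.30, DESeq2 adjusted p = 0.808), and its share also falls when VIM rises. The VIM antisense gene VIM-AS1 overlaps VIM on the other strand, had between 31.7 and 119.5 normalized counts, and its groups overlapped.

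The smooth muscle actins had lower means in HDAC8, without passing the test. ACTA2 (ENSG00000107796, chromosome 10, 88935074 to 88991339, minus strand) had 194.8, 162.4 and 98.2 normalized counts in EV, and 23.8, 22.5 and 103.4 in HDAC8. HDAC8 replicate 3 lay within the EV range and the others lay far below it, so the groups overlapped. ACTA2 had a log2 fold change of -1.61 (SE 0.71, 95% interval -3.00 to -0.21, DESeq2 unadjusted p = 0.0238, adjusted p = 0.127). Without HDAC8 replicate 3 it was -2.71 with an adjusted p of 0.00337. With a filter of at least 10 counts in every library, which leaves 14811 genes and calls 17.1% of those with an adjusted p, the adjusted p was 0.0369. ACTA2 overlaps FAS, a death receptor gene on the opposite strand. FAS had 349.7, 199.9 and 205.9 normalized counts in EV and 87.3, 60.4 and 89.3 in HDAC8 (log2 fold change -1.67, DESeq2 adjusted p = 0.00616). The other opposite-strand genes there, STAMBPL1 (-0.06, DESeq2 adjusted p = 0.965) and ACTA2-AS1 (-0.48, DESeq2 adjusted p = 0.923), were not called. Strand use in the counting is not given in the sources used here, and the part of this overlap in the ACTA2 values was not tested.

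ACTG2 (ENSG00000163017, chromosome 2, 73892314 to 73919865, plus strand) encodes the smooth muscle actin best known from the gut. Normalized counts were 25.2, 31.8 and 108.4 in EV and 10.3, 15.4 and 17.4 in HDAC8. The groups did not overlap, but EV replicate 3 alone set much of the EV mean. ACTG2 differed by -1.94 on the log2 scale (SE 1.01, 95% interval -3.92 to 0.03, DESeq2 adjusted p = 0.22), and by -1.0 without EV replicate 3. ACTA2 and ACTG2 encode near-identical proteins, so reads can be split between them in an expected count. Their log2 ratio in a library ran from -0.14 to 2.93 in EV and from 0.54 to 2.53 in HDAC8, and the difference of -0.29 lay within this spread (exact two-sided permutation p = 0.9).

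Both actins were traces of the actin transcripts. Per kilobase, ACTA2 made up 0.115% ± 0.0392 of the 6 actin genes in EV and 0.0346% ± 0.0292 in HDAC8 (SD, n = 3), and ACTG2 made up 0.0382% ± 0.0335 and 0.00917% ± 0.00118. The groups did not overlap in either share (exact two-sided permutation p = 0.1, the smallest that 3 against 3 libraries allow, 0.15 adjusted over the 9 genes with a family). Without EV replicate 3 the difference in the ACTG2 share was -0.00969 percentage points in place of -0.029. The cytoplasmic actins ACTB and ACTG1 made up nearly all of the rest. ACTB took 52.5% ± 0.757 in EV and 58.3% ± 2.24 in HDAC8, and ACTG1 took 47.3% ± 0.77 and 41.7% ± 2.25, with groups that did not overlap in both. These shares mirror each other, so they are not separate observations. As single genes ACTB (log2 fold change 0.23, DESeq2 adjusted p = 0.382) and ACTG1 (-0.12, DESeq2 adjusted p = 0.681) did not pass the test. The log2 ratio of ACTA2 to ACTB was lower by 2.13 in HDAC8, from -9.31 ± 0.51 to -11.44 ± 1.11 (SD, n = 3, exact two-sided permutation p = 0.1, adjusted p = 0.233 over 7 ratios).

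MYL9 (ENSG00000101335, chromosome 20, 36541497 to 36551447, plus strand) is phosphorylated by myosin light chain kinase and ROCK to start contraction. The deposited counts were 57, 16 and 13 in EV and 7, 0 and 0 in HDAC8. No HDAC8 library reached an EV library, and a count of 0 allows up to 3.07 and 3.27 normalized counts in HDAC8 replicates 2 and 3. The fitted log2 fold change, -3.83, had a wide error (SE 1.77, 95% interval -7.30 to -0.36, DESeq2 unadjusted p = 0.0305, adjusted p = 0.151). Without HDAC8 replicate 1, the only HDAC8 library with reads, the fitted value was -7.23 and its adjusted p was 0.00827. MYL9 took 0.328% ± 0.303 of the counts per kilobase of the regulatory light chains in EV and 0.0273% ± 0.0473 in HDAC8 (SD, n = 3). MYL12A and MYL12B, the light chains of non-muscle myosin II, shared the rest at 48.4% and 51.3% in EV and at 48.1% and 51.9% in HDAC8, and their groups overlapped. By coding length MYL9 took 0.848% in EV and 0.0702% in HDAC8.

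The tropomyosins of the set differed in direction. TPM1 (ENSG00000140416, chromosome 15, 63042620 to 63071915, plus strand) had 456.1, 616.5 and 716.0 normalized counts in EV and 765.4, 860.3 and 953.8 in HDAC8. TPM2 (ENSG00000198467, chromosome 9, 35681992 to 35690056, minus strand) had 350.2, 438.0 and 357.6 in EV and 281.3, 178.2 and 210.2 in HDAC8. Neither gene had an HDAC8 library within the EV range, the one above it and the other below it. On the log2 scale the difference was 0.53 for TPM1 (SE 0.26, DESeq2 unadjusted p = 0.0431, adjusted p = 0.19) and -0.77 for TPM2 (SE 0.35, DESeq2 unadjusted p = 0.0291, adjusted p = 0.146). TPM2 was past both thresholds without HDAC8 replicate 1 (log2 fold change -0.98, adjusted p = 0.049) and with the filter of 10 counts in every library (adjusted p = 0.0443), and TPM1 was not past them in any setting tried.

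Within a library, the log2 ratio of TPM1 to TPM2 counts was 0.38, 0.49 and 1.00 in EV and 1.44, 2.27 and 2.18 in HDAC8. This ratio does not depend on scaling between libraries, and each HDAC8 library lay above each EV library (difference 1.34, exact two-sided permutation p = 0.1, adjusted p = 0.233 over 7 ratios). Per kilobase of canonical transcript, TPM4 took the largest share of the tropomyosins, with 56.1% ± 1.31 of the family in EV and 63% ± 3.06 in HDAC8 (SD, n = 3). TPM3 took 25.5% ± 0.717 and 17.2% ± 0.903, TPM1 11.1% ± 1.57 and 15.6% ± 1.26, and TPM2 7.34% ± 1.17 and 4.26% ± 1.63. All 4 tropomyosin shares had groups that did not overlap (exact two-sided permutation p = 0.1 each), but the shares of a family are tied, since a rise in some lowers others. TPM3 has a canonical transcript of 7064 bases, so the shares depend on the length used. By coding length, TPM3 took 49.8% in EV and 37.3% in HDAC8, TPM4 44% and 55.2%, so that TPM3 came first in EV. On that scale TPM1 took 3.73% and 5.86% and TPM2 2.42% and 1.57%, and the groups then overlapped for TPM2. As a single gene TPM3 had a log2 fold change of -0.53 (DESeq2 adjusted p = 0.00496), under the fold change minimum.

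**Figure D2:**
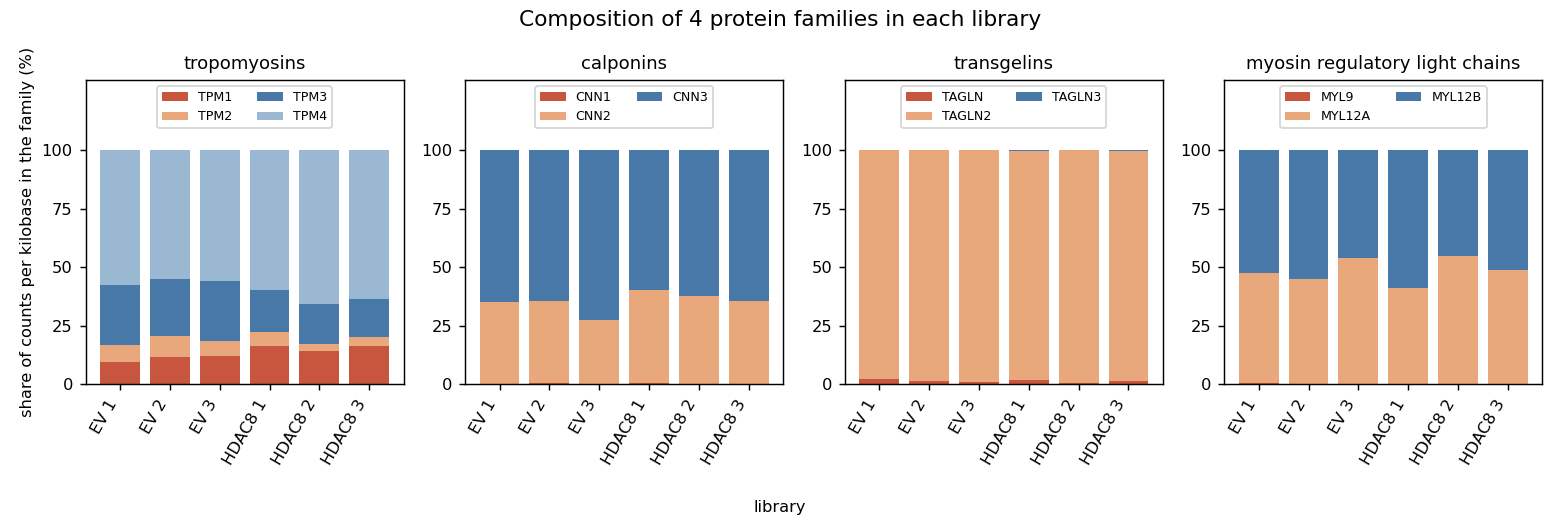
Composition of 4 protein families in each library, as the share (%) of counts per kilobase of canonical transcript, with the libraries on the x axis and 1 colour per gene. TPM1 and TPM4 take larger and TPM2 and TPM3 smaller shares in the 3 HDAC8 libraries, while CNN1, TAGLN and MYL9 are thin slices at the base of their families, or have no reads, in all 6 libraries.

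CNN2 (ENSG00000064666, chromosome 19, 1026586 to 1039068, plus strand) encodes a calponin that is also expressed outside muscle. It had 1853.9, 2180.4 and 1614.3 normalized counts in EV and 2244.2, 2444.1 and 2547.0 in HDAC8. All HDAC8 libraries lay above the EV libraries, by a small margin for HDAC8 replicate 1. CNN2 was 1.28-fold higher in mean with an upper 95% limit of 1.63 (log2 fold change 0.36, DESeq2 unadjusted p = 0.0472, adjusted p = 0.203). Among calponins counted per kilobase, CNN2 took 32.6% ± 4.3 in EV and 37.5% ± 1.98 in HDAC8 (SD, n = 3), without overlap (exact two-sided permutation p = 0.1). CNN3 took nearly all of the rest, 67.2% and 62.3%, so its share mirrors that of CNN2. The highest EV share of CNN2 was 35.1% and the lowest HDAC8 share 35.5%, and without EV replicate 3 the difference was 2.47 percentage points in place of 4.95.

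CNN1 (ENSG00000130176, chromosome 19, 11538767 to 11550323, plus strand), the calponin of differentiated smooth muscle, had counts of 4, 17 and 0 in EV and 24, 0 and 0 in HDAC8. Reads were absent from 1 EV library and 2 HDAC8 libraries, and HDAC8 replicate 1 had the most. The 95% interval of its log2 fold change, -5.38 to 5.45, left a change in either direction undetectable at this depth. TAGLN (ENSG00000149591, chromosome 11, 117199370 to 117207464, plus strand), transgelin or SM22, had 132.5, 110.2 and 62.1 normalized counts in EV and 186.4, 48.2 and 161.9 in HDAC8. HDAC8 replicate 2 was lower and the other HDAC8 libraries higher than every EV library, so the HDAC8 libraries enclosed the EV group (log2 fold change 0.38, SE 0.63, DESeq2 adjusted p = 0.825). TAGLN overlaps AP000892.3 on the same strand and PCSK7 on the opposite strand. PCSK7 had 1191.7, 1318.5 and 1087.1 normalized counts in EV and 2318.2, 1067.8 and 1421.2 in HDAC8 (0.42, DESeq2 adjusted p = 0.361). The part of these overlaps in the TAGLN values was not tested. TAGLN2, the transgelin of most other cell types, took 98.5% ± 0.5 of the family per kilobase in EV and 98.4% ± 0.984 in HDAC8 (SD, n = 3). By coding length TAGLN took 3.95% of the family in EV and 3.46% in HDAC8. As a single gene TAGLN2 had a log2 fold change of 0.58 after rounding and lay just under the minimum (DESeq2 adjusted p = 0.00747).

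CALD1 (ENSG00000122786, chromosome 7, 134744252 to 134970729, plus strand) encodes caldesmon, which binds actin, myosin and tropomyosin. Normalized counts were 4620.1, 4168.1 and 5036.0 in EV and 3630.7, 4374.1 and 4175.0 in HDAC8. The groups overlapped, with HDAC8 replicate 1 the lowest. CALD1 differed by -0.18 on the log2 scale (SE 0.15, DESeq2 adjusted p = 0.546), and its 95% interval, -0.48 to 0.12, does not reach the fold change minimum in either direction.

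**Figure D3:**
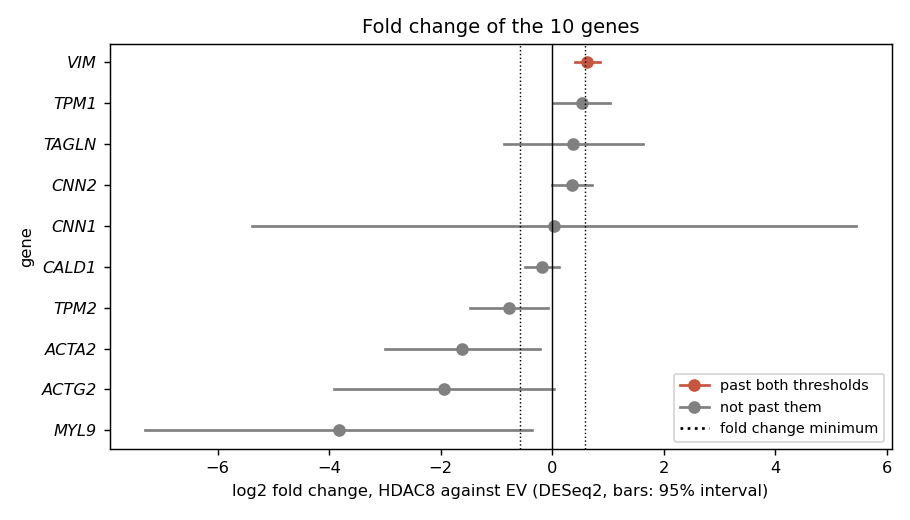
Log2 fold changes of the 10 genes, HDAC8 against EV, with 95% intervals from the DESeq2 standard error, ordered by size, with the fold change minimum as dotted lines at 0.58 in either direction. VIM alone is past both thresholds (red), and the intervals widen from CALD1 and CNN2 to MYL9 (-7.30 to -0.36) and CNN1 (-5.38 to 5.45).

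The RefSeq promoter windows of the genes (GRCh38.p14, from 250 bases before the start to 50 after it) were searched on both strands, using only the first window of each gene symbol. The patterns were CCWWWWWWGG for the CArG box (W for A or T), GGAATG, the core of the TEAD motif, and TGANTCA, the AP-1 motif. Only exact matches were found by this search, so a CArG box that departs from its pattern would be missed. Of the 10 genes, 8 were in that table, and TAGLN and MYL9 were not. The CArG box was found in 2 of the 8, ACTG2 and CNN2, and in 1.29% of all 27305 promoter windows. The stretches that hold it are shown because SRF acts through this element, with the boxes in capitals.
ACTG2, chr2:73892873-73892969, plus strand: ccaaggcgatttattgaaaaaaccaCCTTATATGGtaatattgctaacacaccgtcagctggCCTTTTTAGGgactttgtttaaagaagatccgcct
CNN2, chr19:1026494-1026553, plus strand: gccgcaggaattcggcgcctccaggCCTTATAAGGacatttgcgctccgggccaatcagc
Distances are from the RefSeq starts, at 73893008 for ACTG2 and 1026608 for CNN2, which lie inside the GENCODE gene spans given above. The ACTG2 boxes start 110 and 73 bases before that start and the CNN2 box 89 bases before it. ACTG2 had a lower and CNN2 a higher mean in HDAC8, and neither passed the test. GGAATG was found for CALD1 only, against 14% of all windows, and TGANTCA for none of the 8, against 7.76%. The windows are short, and a match is a description of the letters and not of a bound site.

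Other genes of the actin and filament systems were taken from 9 lists of 123 genes, of which 114 had an adjusted p. DESeq2 called 21 of these higher and 4 lower in HDAC8, 21.9% of the 114, beside 11.0% over the whole table. With at least 10 counts in every library, 17.1% of all genes with an adjusted p were called, and 22 list genes were higher and 4 lower. The lists were chosen with earlier results of these data known, so these shares are a description and not a test. The SRF list had no called gene among 7 with an adjusted p. Log2 fold changes were 0.34 for SRF, 0.30 for its cofactor MRTFA, -0.30 for MRTFB and -0.40 for SCAI, which binds MRTFA, and the groups overlapped in all but SRF. MYOCD had no count. The median log2 fold change of these 7 genes was 0.14.

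**Figure D4:**
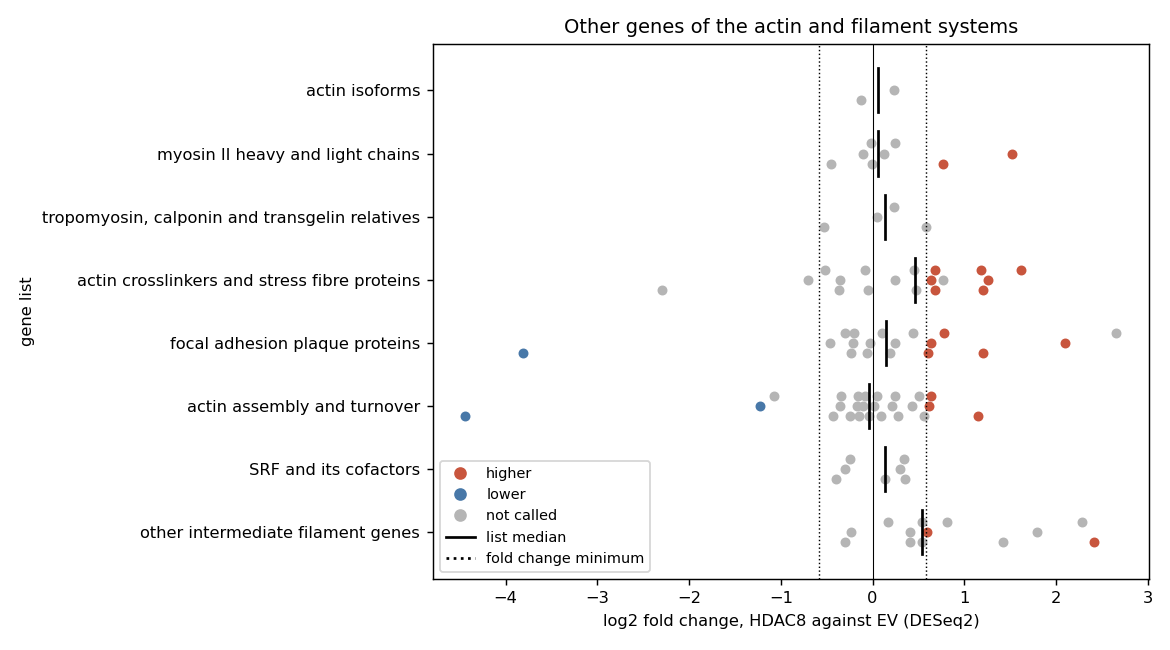
Log2 fold changes (x axis) of the genes in 8 of the 9 lists (y axis), 1 point per gene with an adjusted p, red for higher, blue for lower and grey for not called, with list medians as black bars and the fold change minimum as dotted lines. The crosslinker list has 7 red points and no blue one, and the SRF list has grey points alone.

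The motors and crosslinkers that act on the same filaments included called genes. Of 8 myosin II genes, MYH14 and MYH9, heavy chains of non-muscle myosin, rose and 0 fell. MYH14 had 1609 ± 178.0 normalized counts in EV and 4607 ± 1192 in HDAC8 (SD, n = 3, log2 fold change 1.52, DESeq2 adjusted p = 2.27e-12). MYH9 rose from 27246 ± 4740 to 46546 ± 12226 (0.77, DESeq2 adjusted p = 4.16e-04), with HDAC8 replicate 1 the highest at 60629.5, and without that library its log2 fold change was 0.53 and it was not called. Without the same library MYH11, the smooth muscle heavy chain, was called lower (-0.87, DESeq2 adjusted p = 0.0479), beside -0.45 (DESeq2 adjusted p = 0.519) with all libraries. Of 18 crosslinker and stress fibre genes, 7 rose and 0 fell (median 0.46). PDLIM1, which links alpha-actinin to LIM domain partners, rose most, from 443.5 ± 49.1 to 1360 ± 249.6 normalized counts (SD, n = 3, 1.62, DESeq2 adjusted p = 7.68e-10). The others included, named after their values were seen, PALLD (1.26), FSCN1 (1.20), ACTN4 (0.68), ACTN1 (0.68) and FLNA (0.64) as log2 fold changes. ACTN1 was not called without EV replicate 1, and FLNA was not without EV replicate 1, EV replicate 3 or HDAC8 replicate 1. FLNA was also not called with size factors from upper quartiles. When tested against the fold change minimum, MYH9, ACTN1, ACTN4 and FLNA were not called.

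Of 18 focal adhesion genes, 5 rose and 1 fell. EVL, an Ena/VASP protein that extends actin filaments, rose from 128.6 ± 47.5 to 552.7 ± 273.2 normalized counts (SD, n = 3, log2 fold change 2.10, DESeq2 adjusted p = 2.36e-05). TNS1, the adhesion protein tensin, fell from 2460 ± 374.7 to 174.6 ± 33.6 (-3.81, DESeq2 adjusted p = 3.88e-60). Of 25 actin assembly genes, 3 rose and 2 fell. The profilin PFN2 rose by a log2 fold change of 1.15 (DESeq2 adjusted p = 3.14e-07). The capping protein CAPG had 1094.7, 1538.2 and 1167.4 normalized counts in EV and 93.2, 64.5 and 16.3 in HDAC8 (-4.44, DESeq2 adjusted p = 1.21e-24). The monomer-binding thymosin TMSB4X, named after its values were seen, was lower by -1.23 (DESeq2 adjusted p = 1.00e-16). Among 13 other intermediate filament genes, NEFL and LMNB2 rose, NEFL from 26.58 ± 22.2 to 142.6 ± 33.1 normalized counts (SD, n = 3). NEFL was called in 6 of 13 alternatives and LMNB2, whose groups overlapped, in 6 of 14. Of the actin isoforms and of the tropomyosin, calponin and transgelin relatives, 0 were called. Over all lists, 19 genes were higher and 5 lower without HDAC8 replicate 1. Over the whole table that fit called more genes lower than higher, while the fit with all libraries called slightly more higher. No share of all genes is given here for the fit without that library. Its counts of 19 and 5 therefore stand without a background of their own.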

How the data were processed

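WM164 libraries with an empty or an HDAC8 expression vector (3 each, groups and replicate numbers per the labels) were compared. The authors used Trimmomatic for trimming, STAR for alignment and RSEM for quantification, and deposited expected counts per gene that are not scaled between libraries. The genome build, strand use and removal of duplicates are not given in the sources used here. Expected counts were rounded. DESeq2 1.42.0 (R 4.3.3, its own size factors, two-sided Wald test, Benjamini-Hochberg adjustment) was run on the 26162 genes whose counts summed to 10 or more, and 5141 of them had no adjusted p. Normalized counts are counts divided by the size factors. Intervals are at 95%. The floor is 3 counts and covers counting error only. The intervals of fold changes also take in the spread between libraries, as estimated by DESeq2.

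Canonical transcript lengths and positions came from GENCODE 44 (GRCh38), where 56558 identifiers were found, and promoters from RefSeq. Shares within families and log2 ratios (0.5 counts added) were compared by exact two-sided permutation tests. The members and lists were chosen with earlier results of these data known. Named genes are the 10 genes, their families, and in each list the called gene with the largest rise and the largest fall where the mean normalized count reached 50. The other list genes were named after their values were seen. Alternatives were edgeR 4.0.16 and limma-voom 3.58.1, other size factors and filters, a test against the fold change minimum, a replicate block and each library left out. On simulated counts every tool recovered changed genes with the right sign, but DESeq2 and edgeR made a larger share of false calls than the adjusted p allows, and limma-voom did not. No library was a repeat of another: within groups, chi-square divided by its degrees of freedom was 27.6 to 168. The results of 1 list and 1 further gene are not reported here.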

Additional observations from a re-analysis of the deposited data

How the results depend on the processing

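Of the 10 genes, VIM was called in 12 of 14 alternatives. It was not called with size factors from upper quartiles (log2 fold change 0.57), where 0 of the 10 genes were called higher, or when tested against the minimum fold change (0.63, adjusted p = 1), where again 0 were. With at least 10 counts in every library, 2 genes were called lower, ACTA2 (-1.61) and TPM2 (-0.77). That filter leaves fewer genes to adjust over. Leaving out each library in turn gave 0 to 2 genes called lower, with log2 fold changes of 0.58 to 0.68 for VIM, -2.71 to -1.25 for ACTA2, -2.29 to -1.0 for ACTG2, -7.23 to -3.25 for MYL9, -0.98 to -0.63 for TPM2 and -0.56 to 0.61 for CNN1, over the fits that gave the gene an adjusted p. With the fits that gave none, the ranges were -7.23 to -2.78 for MYL9 and -5.11 to 1.71 for CNN1. CNN1 was -0.89 with limma-voom. The cause of the other changes was not tested. Over the whole table, 292 genes were higher and 291 lower against the fold change minimum, and 746 to 1378 genes were lower across the fits that each left out 1 library. In the pathway lists the test against the minimum left 6 genes higher and 3 lower, and leaving out libraries gave 13 to 26 higher and 3 to 7 lower.

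Across the values that left out 1 library, 3 shares and 2 ratios changed direction. The share of CNN1 in calponins differed by -0.16 to 0.116 percentage points, that of TAGLN in transgelins by -0.49 to 0.222 and that of VIM in intermediate filaments by -0.074 to 2.09. The log2 ratio of ACTA2 to ACTG2 differed by -1.21 to 0.32 and that of TAGLN to TAGLN2 by -0.75 to 0.25. In the fits with all libraries, the groups overlapped for each of these. Replicate numbers did not pair the libraries (correlations of deviations -0.027, -0.066 and 0.04). With a replicate block, VIM had a log2 fold change of 0.63 and ACTA2 of -1.99, and the calls among the 10 genes did not change. Scaling by total counts or upper quartiles moved the median of all genes by 0.042 and -0.054 (log2). MYL9 and CNN1, with at most 57 and 24 counts in a library, are limited by depth.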
